A study of Homo sapiens with 32 samples.

Results

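Sterol synthesis from acetyl-CoA, and its control by the transcription factor SREBP2, was followed through 29 genes in human THP-1 monocytic leukemia cells that lacked ATP-citrate lyase (ACLY) or carried different versions of it. ACLY is the cytosolic enzyme that makes acetyl-CoA from citrate. The genes were chosen by name and had to reach a mean normalized count of 10 over the 32 libraries, which 29 of 29 listed genes did, out of 60107 genes in the tables and 12406 that reached the same level. By role they comprised 7 genes of the route from acetyl-CoA to isopentenyl units, 2 of prenyl chain formation, 3 from squalene to lanosterol, 9 from lanosterol to cholesterol, 6 of SREBP2 control, and 2 further genes, STARD4 and TMEM97.

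All cells descended from an ACLY knockout THP-1 line. KO denotes the knockout cells, and WT, HA and SA denote knockout cells that were lentivirally transduced with wild-type ACLY, the catalytically inactive H760A mutant or the phosphorylation-deficient S455A mutant and selected with puromycin. Whether the KO cells received a control vector is not given in the sources used here. Each line was left unstimulated or received lipopolysaccharide (LPS), a bacterial cell wall product that activates monocytes, at 100 ng/ml for 3 h according to the labels. The study's figure legends give the same dose, whereas its cell culture methods give a lower one. Each of the 8 groups had 4 libraries, prepared with a kit that sequences the 3′ end of each mRNA. There was 1 line per genotype, and the labels do not say whether the 4 libraries of a group came from separate cultures. The study's methods speak of independent experiments in general and do not tie them to these libraries. The p-values may therefore measure only the spread between these libraries, and the genotype cannot be told apart from other differences between the lines.

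Cholesterol is built from acetyl-CoA through mevalonate, isopentenyl units, farnesyl diphosphate, squalene and lanosterol. The transcription factor SREBP2 is held in the endoplasmic reticulum by SCAP and INSIG proteins while sterols are plentiful. When sterols run low, SCAP escorts it to the Golgi, where proteases release its active part, which then raises transcription of most enzymes of the route. INSIG1 is itself a target, which closes a feedback loop. Monocytes also take up cholesterol in lipoproteins and release it through pathways controlled by LXR, so synthesis is one of several sources of their sterols.

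Because SREBP2 acts at promoters, promoter sequences are shown for 3 members. They are TM7SF2, the sterol reductase gene with the largest call below, MSMO1, a sterol methyl oxidase gene, and SREBF2, the gene for SREBP2 itself. They were chosen after the values were seen. Each is the 250 bases before the RefSeq start in GRCh38.p14, on the strand of the gene, 5′ to 3′. Capitals mark a sterol regulatory element (TCACNCCAC), its shorter core (TCACNCCA), an E-box form of it (TCACGTGA), or an NF-Y box (CCAAT, or ATTGG where it lies on the other strand). TM7SF2 lies at chr11:65111622-65111871 on the plus strand, MSMO1 at chr4:165327419-165327668 on the plus strand, and SREBF2 at chr22:41832855-41833104 on the plus strand.
TM7SF2: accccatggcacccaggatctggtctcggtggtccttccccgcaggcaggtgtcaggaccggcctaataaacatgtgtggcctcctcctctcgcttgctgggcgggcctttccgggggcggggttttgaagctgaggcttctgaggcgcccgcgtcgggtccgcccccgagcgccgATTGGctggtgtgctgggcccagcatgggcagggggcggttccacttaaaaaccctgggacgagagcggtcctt
MSMO1: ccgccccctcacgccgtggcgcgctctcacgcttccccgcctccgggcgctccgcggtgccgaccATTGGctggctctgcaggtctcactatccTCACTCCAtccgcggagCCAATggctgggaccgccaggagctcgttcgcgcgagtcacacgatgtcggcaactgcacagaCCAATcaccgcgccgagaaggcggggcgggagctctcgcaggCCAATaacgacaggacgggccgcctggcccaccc
SREBF2: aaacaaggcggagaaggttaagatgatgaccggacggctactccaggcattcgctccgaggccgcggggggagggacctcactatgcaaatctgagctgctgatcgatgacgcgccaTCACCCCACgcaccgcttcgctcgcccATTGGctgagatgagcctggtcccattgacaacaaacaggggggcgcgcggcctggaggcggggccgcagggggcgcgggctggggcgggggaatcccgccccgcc

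The full element, searched on both strands, was present in 1 of the 26 members with a RefSeq promoter entry, SREBF2, from 133 to 125 bases before the start, and in 0.883% of the 35116 promoters searched. The core, which the full element contains, was present in 3 members (MVK, MSMO1 and SREBF2) and in 3.20% of promoters. The E-box form was found in the INSIG1 promoter only among the members and in 0.854% of promoters. The NF-Y box was present in 16 of 26 members and in 32% of promoters. The SP1 box GGGCGG, not capitalized, was present in 21 members and in 42.6%. A match to these letters is a description of the window and not a measured binding site.

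Reads on genes ranged from 6504099 to 14750815 per library, with a median of 10247620. Of 14 monocytic markers, 14 had a median normalized count of at least 10, and 3 were called higher and 0 lower in KO cells against WT unstimulated, and 1 higher and 0 lower in HA cells. After LPS 1 was called higher and 1 lower in KO cells, and 1 higher and 2 lower in HA cells. Of all genes, 2.90% and 2.52% were called in KO and HA cells unstimulated, and 3.47% and 2.02% after LPS. The part of these markers in the pathway differences below was not tested. Markers of T cells, erythroid cells and epithelium stayed below 10 in every library, and among fibroblast and endothelial markers the highest value was 45.8, for VWF. CCL4, a chemokine gene, was higher after LPS in each line, with log2 fold changes from 4.58 to 5.01. The ACLY transcript had normalized counts of 119, 103, 92.0 and 98.5 in unstimulated WT, 98.8, 108, 83.6 and 68.1 in KO, 135, 82.6, 68.2 and 106 in HA and 164, 160.3, 151 and 103 in SA cells. After LPS the counts were 118, 98.5, 126 and 103 in WT, 69.8, 101, 79.0 and 61.2 in KO, 61.2, 65.7, 75.3 and 89.5 in HA and 333, 102, 112 and 97.1 in SA cells. ACLY was not called in unstimulated KO against WT cells (log2 fold change -0.21, SE 0.28, adjusted p = 0.884). Reads at the 3′ end check neither the edit nor the transgene. Replicate 1 of SA cells with LPS stood apart. Over all genes, the SD of its deviations from the group mean was 1.38 on the log2 scale, against 0.27 to 0.82 in the other 31 libraries, and 19 of 29 members had their lowest value of the group and 9 their highest there. Counts and medians of comparisons with SA cells after LPS are therefore also given without it. In bulk RNA, fewer cells of one kind and less RNA per cell cannot be told apart.

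Values below are normalized counts on a scale common to all 32 libraries. Tests are by limma on log2(normalized count + 1), with p-values adjusted by Benjamini-Hochberg over the 12406 genes, and a gene is called at an adjusted p below 0.01. Fold changes are on that log2 scale, and levels are compared within a gene only.

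In WT cells the 29 genes had a mean level of 8.65 ± 0.13 (log2 scale, SD, n = 4), in KO cells 8.98 ± 0.30, in HA cells 9.10 ± 0.17 and in SA cells 8.60 ± 0.16. After LPS the means were 8.57 ± 0.13, 8.98 ± 0.37, 9.09 ± 0.12 and 8.49 ± 0.39. The means of KO and HA cells thus lay above those of WT and SA cells in both states, most evenly over libraries in HA cells. Subtracting libraries with the same replicate number, HA minus WT was 0.60, 0.37, 0.39 and 0.46 unstimulated and 0.54, 0.51, 0.53 and 0.49 after LPS. HA and WT libraries with the same number did not all deviate together over all genes. Their correlations ran from -0.24 to 0.29 unstimulated and from -0.33 to 0.35 after LPS. The HA differences are therefore not differences of matched pairs. KO minus WT was 0.01, 0.47, 0.34 and 0.49 unstimulated and -0.11, 0.58, 0.55 and 0.60 after LPS, so replicate 1 of KO cells sat at the WT level in both states. Within each of the 8 groups, replicate 4 had the highest mean level.

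**Figure D1:**
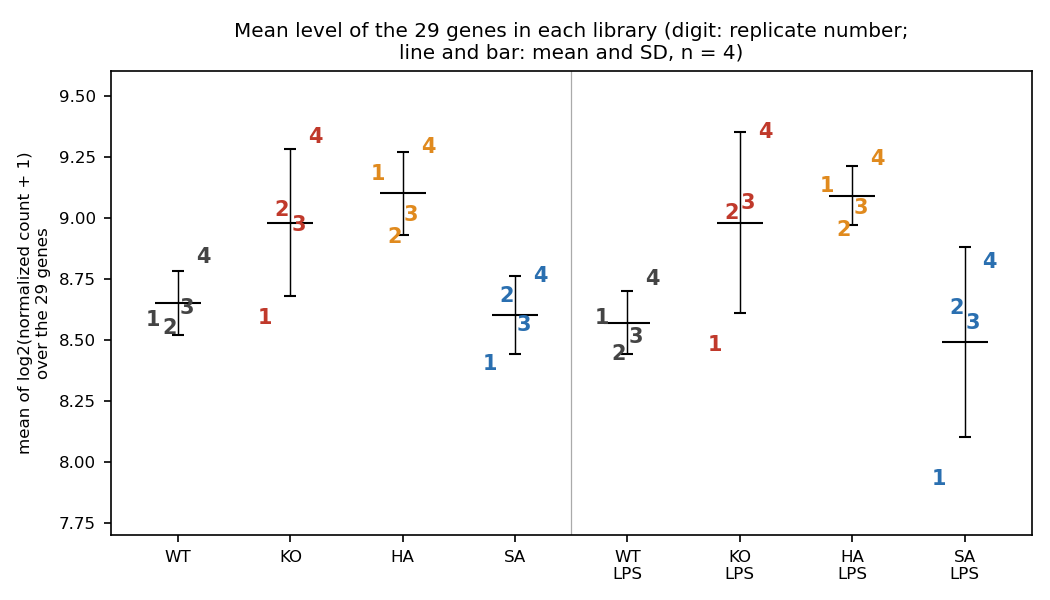
Mean level of the 29 genes in each library, as the mean of log2(normalized count + 1), for the 4 lines unstimulated (left) and after LPS (right). Digits are replicate numbers, and the line and bar are the mean and SD of 4 libraries. All 4 HA libraries lie above all 4 WT libraries in both states, and replicate 1 of KO cells and of SA cells with LPS is the lowest of its group.

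In HA cells against WT cells, the median of the members' log2 fold changes was 0.60 unstimulated and 0.54 after LPS, where the medians over all genes tested were -0.02 and -0.03. One member, TM7SF2, was called unstimulated and 0 were called after LPS, with 2.52% and 2.02% of all genes called. At an unadjusted p below 0.05 the counts were 12 of 29 unstimulated, all higher, where 24.5% of all genes passed, and 15 of 29 after LPS, all higher, where 16.7% passed. In 13 members every unstimulated HA library exceeded every WT library, against 9.00% of all genes, and in 14 members this was so after LPS, against 7.09%. One member, MBTPS2, was lower in every unstimulated HA library than in every WT library. The share of all genes in that direction was not counted, so this count has no background to be read against.

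In KO cells against WT cells the median was 0.31 unstimulated and 0.44 after LPS, against -0.03 and -0.01 over all genes. No member was called by limma, with 2.90% and 3.47% of all genes called. At an unadjusted p below 0.05, 4 members unstimulated and 9 after LPS passed, all higher, where 14.3% and 17.2% of all genes passed. Every KO library exceeded every WT library for 1 member unstimulated, MSMO1, against 5.90% of all genes, and for 3 after LPS (AACS, GGPS1 and STARD4), against 6.73%. Libraries of KO and WT cells with the same number deviated together. When replicate numbers entered as a block in a fit of these 2 groups alone, 4 members were called higher unstimulated (5.83% of all genes called) and 5 after LPS (10.7% called). Without replicate 1 of KO cells, the members in which every library was higher went from 1 to 5 unstimulated, against 7.42% of all genes, and without replicate 1 of KO cells with LPS from 3 to 13, against 8.44%.

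In SA cells against WT cells no member was called in either state by limma, and of all genes 0% were called unstimulated and 0% after LPS. Unstimulated, 0 members passed an unadjusted p below 0.05, and the fold changes ran from -0.53 ± 0.41 (SE) for SC5D to 0.44 ± 0.38 for TM7SF2. After LPS, 1 passed, SCAP, with a fold change of -0.54 and an adjusted p of 0.825. SCAP had 219.6, 714, 764 and 703 in SA and 859, 681, 892 and 729.7 in WT cells with LPS, so that replicate 1 of SA cells alone lay below the WT libraries. Without it the SCAP fold change was -0.11 (SE 0.17), 0 members passed an unadjusted p below 0.05, against 1.76% of all genes, and the members' median was 0.07 in place of -0.10. The standard errors of the members, 0.12 to 0.64, were such that differences of that size could pass undetected.

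**Figure D2:**
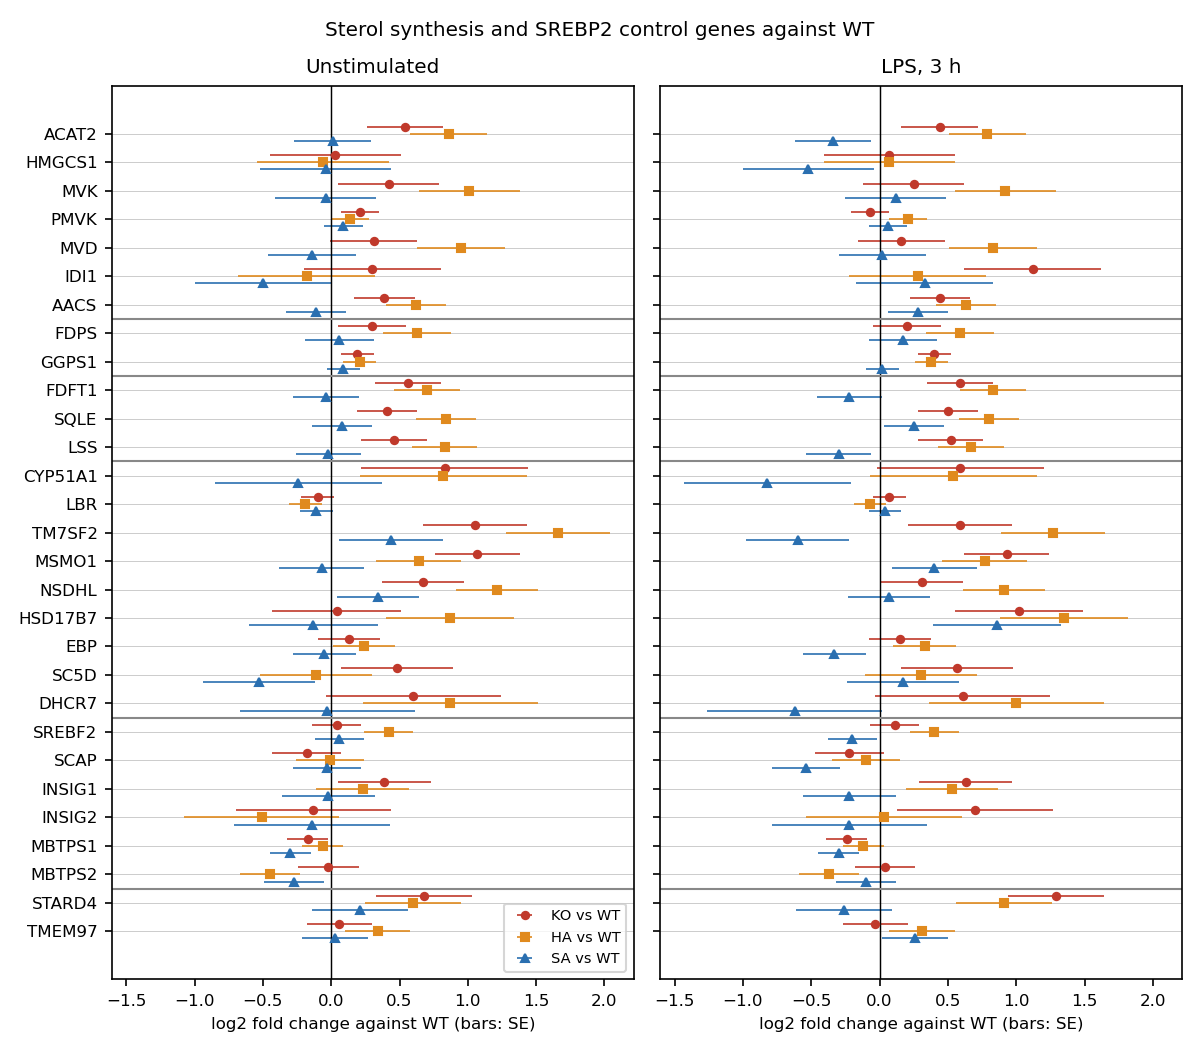
Log2 fold change against WT for each of the 29 genes, in pathway order from top to bottom, unstimulated (left) and after LPS (right). Points are KO (red circles), HA (orange squares) and SA (blue triangles), bars are the standard error of the fit, and grey lines divide the roles. Most KO and HA points from squalene to cholesterol lie right of 0, TM7SF2 in HA cells at 1.66 unstimulated being the farthest. KO and HA points of SREBP2 control lie on both sides of 0, from -0.51 to 0.42 in unstimulated HA cells. In SA cells with LPS, where replicate 1 stood apart, all 6 of these genes lie left of 0.

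The first steps turn acetyl-CoA into isopentenyl units. ACAT2, which joins acetyl-CoA units, had normalized counts of 1966, 2074, 1887 and 2168 in WT cells, 1862, 3526, 2721 and 4183 in KO cells, 3448, 3305, 3300 and 4858 in HA cells and 1642, 1966, 1784 and 2939 in SA cells. All HA libraries exceeded all WT and SA libraries, and KO libraries 2 to 4 did so over WT. The HA against WT log2 fold change was 0.86 (SE 0.28, adjusted p = 0.058) unstimulated and 0.79 (SE 0.28, adjusted p = 0.118) after LPS. HMGCS1, the synthase of the next step, had fold changes of -0.06 in HA and 0.03 in KO cells against WT (SE 0.48). Its group means ran from 1389 to 1825.

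MVK and MVD, a kinase and a decarboxylase of mevalonate, had log2 fold changes of 1.01 and 0.95 in HA against WT cells unstimulated (adjusted p = 0.096 and 0.070). Every HA library of both exceeded every WT library. MVD had 244, 203, 236 and 235 in WT and 489.8, 586, 336 and 402 in HA cells, against 148, 233, 458 and 413 in KO cells, which spread to both sides of WT. PMVK, the kinase between them, differed by 0.14 (SE 0.14). AACS, which activates acetoacetate in the cytosol, was higher in every HA library than in every WT library, by 0.62 (adjusted p = 0.078) and, after LPS, by 0.63 (adjusted p = 0.107). IDI1, the isomerase of isopentenyl units, had a fold change of -0.18 in HA cells (SE 0.50). In KO cells after LPS it had 669, 1122, 254 and 689 against 358, 402, 146 and 276 in WT cells with LPS, higher within each replicate number. That difference was 1.12, with an adjusted p of 0.232, and with the replicate block 7.50e-05.

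Prenyl chains are made by FDPS, which supplies farnesyl diphosphate, and GGPS1, which lengthens it for protein prenylation. FDPS had a mean of 3290 ± 548 in WT and 5070 ± 733 in HA cells (SD, n = 4), a difference of 0.63 (SE 0.25, adjusted p = 0.124). GGPS1 had 463, 416, 471 and 494 in WT cells and 530, 502, 541 and 559 in HA cells, which did not overlap. Its log2 fold change was 0.21 there (adjusted p = 0.290), and after LPS 0.40 in KO cells against WT (adjusted p = 0.053).

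The 3 genes from squalene to lanosterol had fold changes from 0.70 to 0.84 in HA against WT cells unstimulated. FDFT1, squalene synthase (ENSG00000079459, GRCh38 chromosome 8, 11795573 to 11839395), had 2170, 2067, 2042 and 2649 in WT cells, 2488, 3479, 3008 and 4449 in KO cells, 3468, 3164, 3374 and 4624 in HA cells and 1756, 2316, 2066 and 2611 in SA cells. After LPS the values were 2196, 2137, 1993 and 2366 in WT, 2190, 3737, 3092 and 4477 in KO, 3940, 3635, 3557 and 4388 in HA and 932, 2202, 2232 and 2595 in SA cells. HA libraries lay above all WT and SA libraries in both states, while replicate 1 of KO cells with LPS fell among the WT libraries. FDFT1 was called in HA against SA cells after LPS (1.06, SE 0.24, adjusted p = 6.72e-03). Without replicate 1 of SA cells with LPS the same difference was 0.73, with an adjusted p of 0.023, the call was also lost without any 1 HA library with LPS (FDFT1 adjusted p from 0.014 to 0.023 over these 5 omissions), and HA against WT after LPS went from an adjusted p of 0.039 to 3.55e-03 at a fold change of 0.83. In KO against WT cells the block gave 6.50e-03 unstimulated (0.56) and 6.59e-03 after LPS (0.59), where limma without it gave 0.227 and 0.161.

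SQLE, squalene monooxygenase, a rate-limiting enzyme, had 1344, 1294, 1823 and 1464 in WT and 3258, 2321, 2454 and 2541 in HA cells, with no overlap (log2 fold change 0.84, SE 0.22, adjusted p = 0.020). After LPS the difference was 0.80 (adjusted p = 0.035). Without replicate 1 of SA cells with LPS, which enters only the shared estimate of spread, the unstimulated adjusted p was 7.92e-03. LSS, which closes the sterol rings, was higher in all 4 HA libraries than in all 4 WT libraries in both states, by 0.83 (adjusted p = 0.033) and 0.67 (adjusted p = 0.118). In KO cells SQLE and LSS differed from WT by 0.41 and 0.46 unstimulated, both overlapping WT.

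Of the 9 genes from lanosterol to cholesterol, TM7SF2 differed most in HA against WT cells unstimulated. TM7SF2 (ENSG00000149809, GRCh38 chromosome 11, 65111845 to 65116384) encodes a reductase that acts just after CYP51A1. It had 186, 194, 132 and 253 in WT cells, 232, 414, 381 and 612 in KO cells, 528, 525, 563 and 774 in HA cells and 198, 274, 230.1 and 327 in SA cells. After LPS it had 203, 212, 278 and 293 in WT, 139.5, 346, 568 and 653 in KO, 651, 433, 596 and 713 in HA and 66.9, 193, 198 and 256 in SA cells. The HA libraries did not overlap the WT or the SA libraries in either state, whereas the KO libraries ran from within or below the WT range up into the HA range. The unstimulated means were 191 ± 49.6 in WT and 597 ± 119 in HA cells (SD, n = 4), a ratio of 3.12, and the gene was called (1.66, SE 0.38, adjusted p = 6.98e-03).

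That call was close to its limit. TM7SF2 in HA against WT cells lost it, at an adjusted p from 0.016 to 0.026, when any 1 HA library or replicate 1, 2 or 3 of WT cells was left out. After LPS the difference was 1.27 (adjusted p = 0.054). In HA against SA cells it was 1.22 (adjusted p = 0.070) unstimulated and 1.87 after LPS, called with an adjusted p of 2.61e-03, or 1.45 with an adjusted p of 0.013 without replicate 1 of SA cells with LPS. Leaving out replicate 1 or 4 of HA cells with LPS gave 0.012. In KO against WT cells unstimulated it was 1.05, with an adjusted p of 0.131, and of 3.78e-03 with the replicate block. LBR, the lamin B receptor and the other reductase of the same step, differed by -0.19 in HA and -0.10 in KO cells (SE 0.12).

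**Figure D3:**
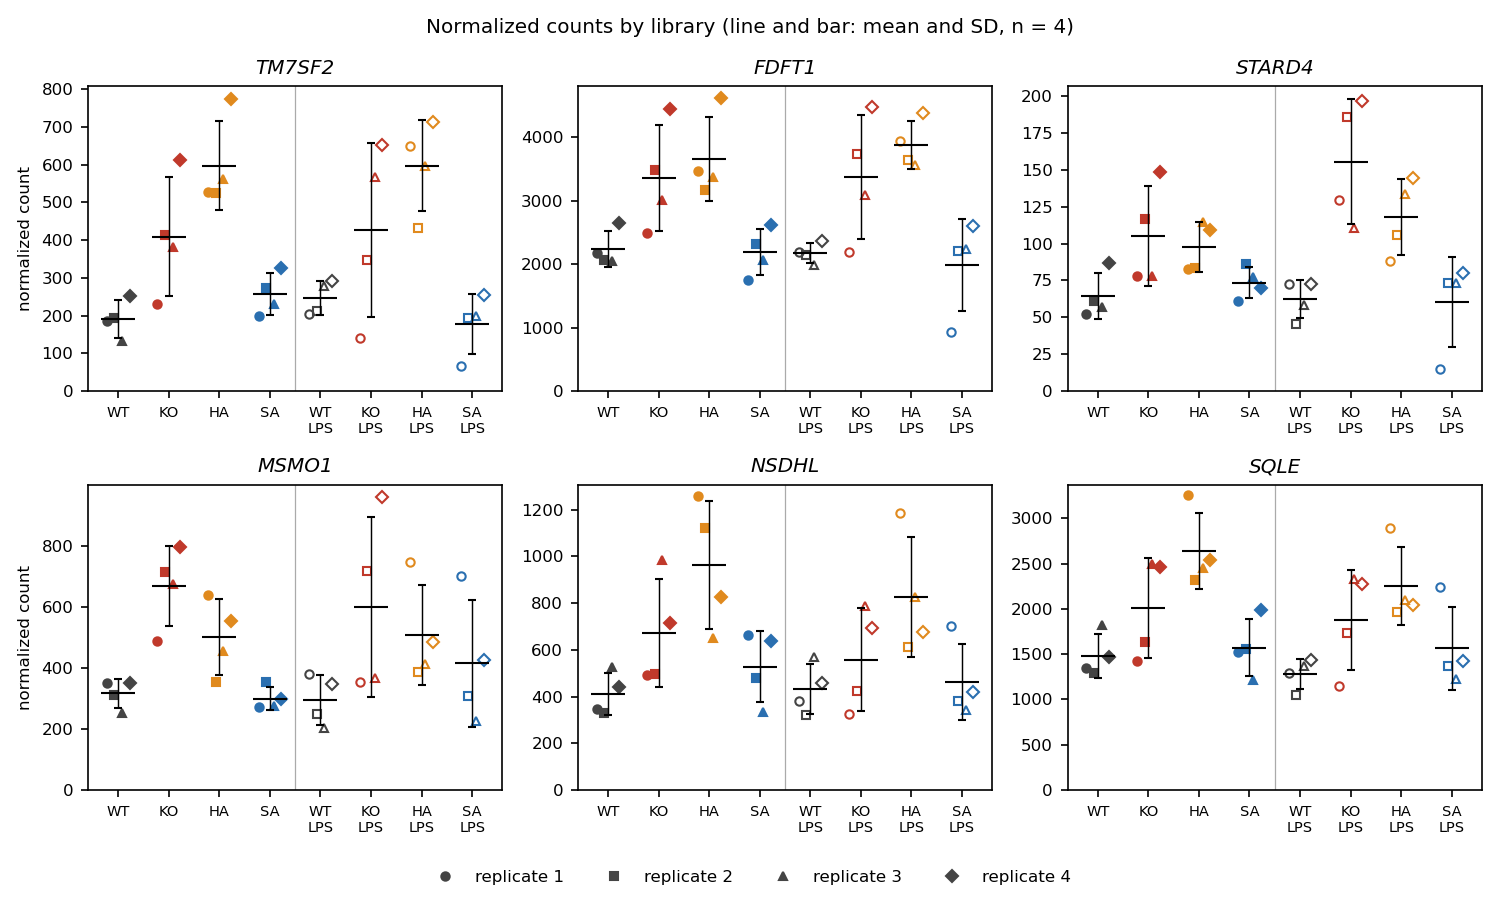
Normalized counts of 6 members in each of the 32 libraries, by group, unstimulated (filled) and after LPS (open). Markers are the replicates, and the line and bar are the mean and SD of 4 libraries. TM7SF2, FDFT1 and SQLE in HA cells sit clear of WT cells in both states, MSMO1 in unstimulated KO cells sits clear of WT and SA cells, and replicate 1 of SA cells with LPS is apart from its group in all 6.

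MSMO1 and NSDHL act in removing methyl groups from the ring. MSMO1 had 351, 311, 251 and 351 in WT, 486, 714, 674 and 796 in KO, 638, 353, 455 and 554 in HA and 273, 352, 273 and 298 in SA cells. All KO libraries exceeded all WT and SA libraries. KO against WT was 1.07 (SE 0.31, adjusted p = 0.041, and 1.09e-03 with the block). After LPS it was 0.93 (adjusted p = 0.072, and 8.15e-03 with the block). KO against SA unstimulated was 1.14 (adjusted p = 0.024, and 8.45e-03 without replicate 1 of SA cells with LPS). NSDHL had 348, 330.3, 525 and 442 in WT and 1258, 1121, 652 and 826 in HA cells, again with no overlap (1.21, SE 0.30, adjusted p = 0.014, and 6.48e-03 without replicate 1 of SA cells with LPS). In KO against WT cells NSDHL differed by 0.67 (adjusted p = 0.284, and 2.86e-03 with the block).

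CYP51A1, which demethylates lanosterol, was measured near the lower limit, with 11.6, 22.1, 46.6 and 33.7 in WT and 35.1, 53.7, 34.3 and 68.1 in KO cells, and its SE of 0.61 was among the largest. HSD17B7, a sterol keto reductase, was likewise low, with group means from 26.9 to 72.0. Both had every HA library above every SA library unstimulated, at 1.06 and 1.00 (adjusted p = 0.408 and 0.282). Of the last enzymes, EBP differed in HA cells from WT by 0.24, SC5D by -0.11 and DHCR7 by 0.87 (SE 0.23, 0.41 and 0.64). DHCR7 had the widest spread within groups of the 29, an SD of 0.97 on the log2 scale, where the members' median was 0.41 and that of all genes 0.42.

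The genes of SREBP2 control showed no common direction against WT in KO and HA cells, with medians of -0.07 in KO and -0.04 in HA cells unstimulated. SREBF2 itself had 822, 852, 744 and 895 in WT, 762, 901, 702 and 1073 in KO, 1005, 1065, 1045 and 1319 in HA and 748, 933, 690.2 and 1151 in SA cells. The HA libraries lay above all WT libraries (0.42, SE 0.18, adjusted p = 0.159), and after LPS again (0.40, adjusted p = 0.260). INSIG1 after LPS had 946, 828, 791 and 1213 in WT, 1122, 1421, 1321 and 2047 in KO and 1233, 1222, 1339 and 1597 in HA cells. The KO difference there was 0.63, with an adjusted p of 0.375, and of 1.23e-03 with the block. INSIG2 was low, with group means from 21.7 to 35.5, and its SE was 0.57. SCAP differed by -0.18 in KO and -0.01 in HA cells, and MBTPS1, the first of the releasing proteases, by -0.17 and -0.06. MBTPS2, the other protease, had 147, 126, 148 and 127 in WT and 92.8, 103, 99.3 and 104 in HA cells, lower with no overlap (-0.45, SE 0.22, adjusted p = 0.211).

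STARD4 (ENSG00000164211, GRCh38 chromosome 5, 111496033 to 111512590), which carries sterols between membranes, had 52.3, 61.1, 56.8 and 87.0 in WT, 78.0, 117, 78.1 and 148 in KO, 82.5, 83.4, 115 and 109 in HA and 60.9, 86.0, 77.5 and 69.8 in SA cells. After LPS it had 72.8, 45.7, 58.3 and 72.3 in WT, 129.9, 186, 110.3 and 197 in KO, 88.2, 106, 134 and 144 in HA and 15.3, 73.6, 73.0 and 79.8 in SA cells. After LPS all KO and all HA libraries exceeded all WT and all SA libraries. STARD4 was called in KO against SA cells after LPS (1.55, SE 0.35, adjusted p = 5.28e-03), and without replicate 1 of SA cells with LPS the difference was 1.00 with an adjusted p of 0.015. The call was also lost without replicate 1, 2 or 4 of KO cells with LPS, at an adjusted p from 0.011 to 0.024. Against WT after LPS it was 1.29 in KO cells (adjusted p = 0.021, 1.03e-03 with the block, and 2.99e-04 without replicate 1 of SA cells with LPS). TMEM97, an endoplasmic reticulum protein tied to lipoprotein uptake, differed by 0.06 in KO and 0.34 in HA cells against WT (SE 0.24).

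SA cells, which carry the phosphorylation-deficient ACLY, served as the other reference. HA against SA gave medians of 0.42 unstimulated and 0.55 after LPS, and KO against SA 0.34 and 0.38. The calls were 0 in HA against SA unstimulated (1.50% of all genes called), 2 after LPS (2.02%), 0 in KO against SA unstimulated (2.86%) and 1 after LPS (2.93%) by limma. At an unadjusted p below 0.05 the counts were 12, 15, 4 and 9 in the same order, all higher, where 16.4%, 19.6%, 15.9% and 19.1% of all genes passed. Every library was higher for 11 members in HA against SA unstimulated (6.11% of all genes), 7 after LPS (5.51%), 2 in KO against SA unstimulated (5.26%) and 2 after LPS (4.76%). Without replicate 1 of SA cells with LPS, the 7 became 12, while the share of all genes went to 13.9%, and the 2 in KO against SA stayed 2, with 9.49% of all genes. No member was then called against SA cells after LPS by limma, and the counts at an unadjusted p below 0.05 were 14 in HA against SA, where 25.3% of all genes passed, and 6 in KO against SA, where 16.4% passed. The medians after LPS were then 0.48 in HA and 0.29 in KO cells against SA. Without replicate 1 of KO cells with LPS, 8 rather than 2 members were higher in every KO library than in every SA library after LPS (6.24% of all genes), and 3 were called (ACAT2, LSS and TM7SF2), with 2.07% of all genes called. These comparisons share the KO and HA libraries with those against WT.

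KO and HA cells were compared directly. The median was -0.14 unstimulated and -0.18 after LPS, no member was called by limma, and 0.226% and 0.00806% of all genes were. At an unadjusted p below 0.05, 1 member passed in each state, where 10.4% and 10.5% of all genes did, both lower in KO cells, SREBF2 unstimulated (-0.38, adjusted p = 0.478) and MVD after LPS (-0.66, adjusted p = 0.471). Differences of MVK (-0.59, SE 0.37) and MSMO1 (0.43, SE 0.31) pointed in opposite directions, and neither passed. MBTPS2 had 136.5, 136.3, 130.2 and 135.3 in KO and 92.8, 102.8, 99.27 and 103.7 in HA cells unstimulated, with no overlap. It did not pass either. In 0 members was every unstimulated KO library lower, and shares of all genes without overlap were not counted here.

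No response of these genes to 3 h of LPS passed the test. No member was called by limma in WT, KO, HA or SA cells, where 0.250%, 0.572%, 0.403% and 0.492% of all genes were called. The medians were -0.05, -0.02, -0.01 and -0.17, the last of which was 0.04 without replicate 1 of SA cells with LPS. At an unadjusted p below 0.05, 1 member passed over the 4 lines, where 1.61%, 5.42%, 4.77% and 9.85% of all genes did, PMVK in KO cells (-0.38, SE 0.14, adjusted p = 0.500). TM7SF2 went from 597 ± 119 to 598 ± 120 in HA cells and STARD4 from 105 ± 34.0 to 156 ± 42.2 in KO cells (SD, n = 4), the latter by 0.57 (SE 0.35, adjusted p = 1.000). The LPS response itself differed from that of WT cells for 0 members in KO, HA and SA cells by limma, and for 0.00806%, 0% and 0% of all genes, and 0 members passed an unadjusted p below 0.05. Without replicate 1 of SA cells with LPS, IDI1 and SC5D passed an unadjusted p below 0.05 in SA cells, both higher after LPS, no member was called by limma, and the difference from the WT response again passed for 0 members.

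Genes around the pathway were taken from lists. Of 18 other sterol and SREBP genes, 1 was called higher and 1 lower in KO against WT cells unstimulated, and 0 higher and 1 lower in HA against WT. Of all genes, 2.90% and 2.52% were called in these comparisons in the same order. MARCHF6, an ubiquitin ligase of the endoplasmic reticulum that acts on squalene monooxygenase, was lower and called in all 8 comparisons of KO or HA with WT or SA cells. It had 1469, 1666, 1561 and 1620 in WT, 813, 849, 784 and 815 in KO, 995, 855, 846 and 1058 in HA and 1604, 1833, 1643 and 1761 in SA cells. No KO or HA library reached a WT or SA library. The log2 fold change was -0.95 in KO (SE 0.14, adjusted p = 4.11e-05) and -0.76 in HA cells (adjusted p = 1.15e-03) against WT. After LPS it was -1.07 and -0.79 (adjusted p = 6.21e-06 and 7.73e-04). Leaving out any 1 library kept all 8 calls. In fits of the compared groups alone MARCHF6 lost the call after LPS in KO against SA (adjusted p = 0.081) and HA against SA cells (adjusted p = 0.139).

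NPC2, a lysosomal cholesterol carrier, was higher in KO than in WT cells by 0.91 (adjusted p = 2.33e-03, and up to 0.014 when replicate 1 of KO cells or replicate 2 or 3 of WT cells was left out) and after LPS by 1.00 (adjusted p = 7.80e-04). In HA cells it differed by 0.59 (adjusted p = 0.057) and after LPS by 0.94 (adjusted p = 2.65e-03, and 0.011 to 0.022 in the 4 omissions of 1 library that lost the call). The list of LXR targets and oxysterol enzymes, with 7 tested genes, had medians of -0.20 in KO and -0.53 in HA cells against WT. Of 13 genes of the isoprenoid branches, ICMT, a methyltransferase of prenylated proteins, was called lower in HA cells unstimulated (-0.97, adjusted p = 8.27e-03, though the call was lost in 16 of 38 alternatives, 12 of which left out 1 library, with an adjusted p of up to 0.057 for ICMT). No gene was called by limma in the comparisons between lines among 11 tested genes of fatty acid synthesis, 6 of acetyl-CoA supply or 20 of proliferation. Of all genes, 0% to 3.47% were called in those comparisons. At an unadjusted p below 0.05, 2, 3 and 6 genes of these lists passed in HA against WT cells unstimulated, where 24.5% of all genes did. Among the list genes that passed was ACSS2, an acetyl-CoA synthetase on the first and second lists (0.98, adjusted p = 0.044). The proliferation list had medians of -0.02 in KO and -0.11 in HA cells against WT.

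**Figure D4:**
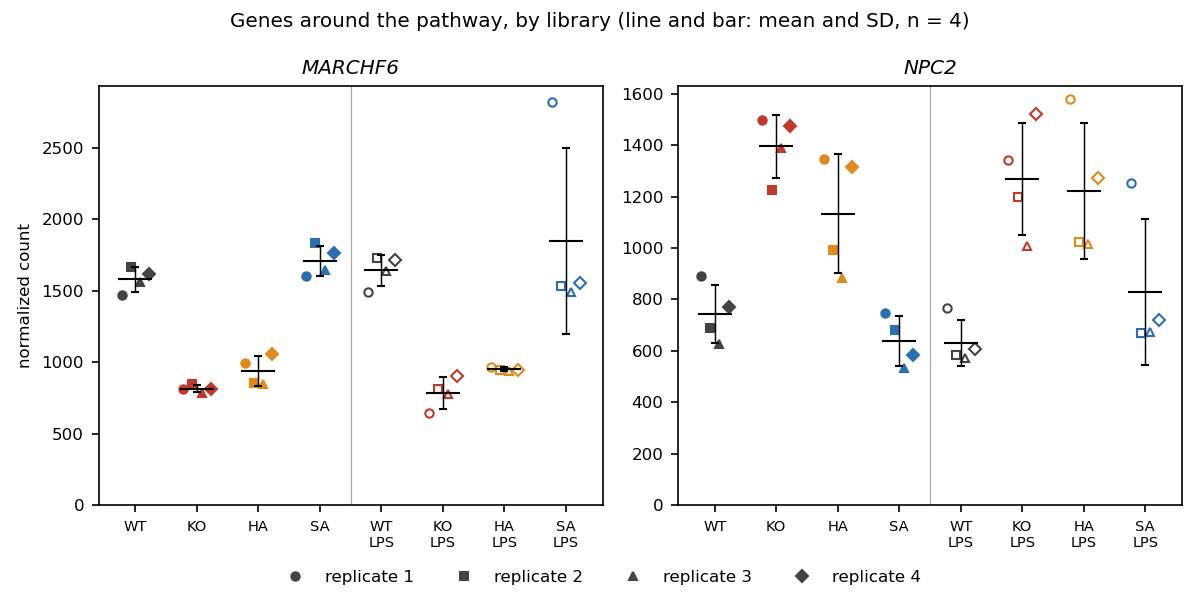
Normalized counts of MARCHF6 and NPC2 in each of the 32 libraries, by group, unstimulated (filled) and after LPS (open), with the mean and SD of 4 libraries. MARCHF6 in KO and HA cells stays below every WT and SA library in both states, and NPC2 in unstimulated KO cells stays above every unstimulated WT and SA library.

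For 8 members another annotated gene lies over the 3′ end, namely ACAT2 (TCP1), IDI1, FDPS, GGPS1, LSS, CYP51A1 (AKAP9), EBP and TMEM97 (IFT20). Strand use in counting is not given in the sources used here, so their reads cannot be separated from those of the neighbor. HSD17B7 and AACS have pseudogenes that carried a mean normalized count of at most 5.66, so some of their reads may be shared.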

How the data were processed

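Sequencing of mRNA 3′ ends was analysed for 32 THP-1 libraries in 8 groups of 4. According to the study's methods, the authors trimmed reads with Bbduk, aligned them to GRCh38 with STAR, counted them per gene by HTSeq-count (Bluebee pipeline) and normalized and tested the counts with DESeq2. Versions and the strand setting of the counting are not given in the sources used here. The deposited values are normalized counts, which the authors made by dividing reads by a size factor per library. Recomputation gave the deposited factors when they were taken over the 8 libraries of each line, so lines were not on 1 scale. Multiplying back gave whole reads for 100.000% of values (within 0.05). The recovered reads served to put the libraries on 1 scale, and the tests were run on the log scale.

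Reads were rescaled with median-of-ratios factors over all 32 libraries, and 12406 of 60107 genes with a mean of at least 10 were tested (R 4.3.3, limma 3.58.1, log2 with a pseudocount of 1, 8 group means, empirical Bayes with trend, adjusted p below 0.01). Groups came from the sample labels. The test was checked on simulated counts, drawn independently for each library with the same spread setting for every gene. That check does not cover libraries that deviate together or a library that stands apart. Its outcome is not reported here. Alternatives were the deposited scale, TMM scale, a pseudocount of 5, no low-count filter, the compared groups alone, a replicate block, and leaving out each library. Counts of members with every library higher were recomputed under other scales and without single libraries, which was decided after seeing the data. Libraries with the same number deviated together in every pair among the WT and KO groups with and without LPS (correlations from 0.12 to 0.72). In each pair with an HA or SA group the lowest correlation was 0.02 or less, although single numbers reached 0.58. Blocked values of single genes are therefore given for KO against WT only. The labels number the libraries and do not say what a number marks.

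Members were described in pathway order, with each library's value for those called between lines and for others that the results turn on; the latter were chosen after their values were seen. The members and lists were chosen with earlier results of these data known. Values and calls of some genes on the context and marker lists are not reported here. Gene positions are from GENCODE in GRCh38, promoters from RefSeq in GRCh38.p14, where 3 members (ACAT2, FDFT1 and SQLE) had no entry and the first of several entries was used for 6. The depth per library, 6504099 to 14750815 reads, limits the precision of low genes such as CYP51A1 and INSIG2.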

Additional observations from a re-analysis of the deposited data

Results flagged for a closer look

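Within 240 groups of 4 libraries, one for each member and group plus the mean level, 18 values lay far from the other 3 libraries of their group by Dixon's criterion, where chance alone marks about 1 in 20 groups. Replicate 1 of SA cells with LPS held 8 of them, all low except MVK. They were HMGCS1 at 298, MVK at 485, FDFT1 at 932, EBP at 625, DHCR7 at 11.7, SCAP at 219.6, INSIG2 at 3.52 and STARD4 at 15.3 normalized counts. Replicate 3 of WT cells held 3, with LSS at 192, EBP at 1596 and SC5D at 107. Replicate 4 of HA cells held ACAT2 at 4858 and SCAP at 952. The others were AACS at 305 in replicate 2 and SQLE at 2897 in replicate 1 of HA cells with LPS, LBR at 2342 in replicate 1 of KO cells with LPS, and CYP51A1 at 21.1 in replicate 2 and DHCR7 at 294 in replicate 4 of WT cells with LPS.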

How the results depend on the processing

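No result for a member reversed its direction when called. The TMM scale and a pseudocount of 5 left all 551 member results on the same side of the threshold. The compared groups alone gave 2 called members in HA against WT unstimulated, 1 in KO against SA unstimulated, 1 in HA against SA unstimulated, 2 in HA against WT after LPS, and 0 in KO against SA and in HA against SA after LPS. In these fits 196, 138, 92, 133, 18 and 8 of all genes were called in the same order. The deposited scale, which shifts all genes by -0.10 in KO, 0.15 in HA and 0.26 in SA cells against WT, gave 4 in HA against WT unstimulated, 3 after LPS, 0 in KO against SA after LPS and 1 in HA against SA after LPS. On that scale 503, 352, 1192 and 301 of all genes were called in the same order. Without the low-count filter, which tests more genes, the called members were 0 in HA against WT unstimulated, 0 in KO against SA after LPS and 1 in HA against SA after LPS. In that larger set 240, 292 and 191 genes were called in the same order. The replicate block gave 4 called members in KO against WT unstimulated and 5 after LPS, with 723 and 1333 of all genes called. Where not all numbers pair the libraries, it gave 0 in HA against WT unstimulated, 5 in HA against SA unstimulated, and 0 in KO against SA and in HA against SA after LPS. Of all genes 8, 231, 0 and 1 were called there in the same order. The block changed no other count of called members. Over all genes, HA against WT unstimulated went from 313 called to 503 on the deposited scale, 196 with the compared groups alone and 8 with the block. Leaving out 1 library gave from 0 to 3 called members in HA against WT unstimulated, 0 to 1 in KO against SA unstimulated, 0 to 1 in KO against WT after LPS, 0 to 1 in HA against WT after LPS, 0 to 3 in KO against SA after LPS and 0 to 4 in HA against SA after LPS, where the shares of all genes called ranged from 1.51% to 4.47%, 1.84% to 4.05%, 2.60% to 5.06%, 1.25% to 2.84%, 2.04% to 3.19% and 1.23% to 2.22%. Members with every library higher, recounted after seeing the data, ranged from 1 to 5 in KO against WT unstimulated, 3 to 13 after LPS, 2 to 6 in KO against SA unstimulated, 2 to 8 after LPS and 7 to 12 in HA against SA after LPS when 1 library was left out, beside 6.76% to 10.4%, 7.64% to 11.7%, 6.04% to 11.4%, 5.62% to 9.49% and 6.27% to 13.9% of all genes. On the deposited scale the members were 1 in KO against WT after LPS (4.93% of all genes), 1 in KO against SA unstimulated (1.92%), 7 in HA against SA unstimulated (3.55%) and 1 in KO against SA after LPS (1.48%). There were 15 in HA against WT unstimulated (14.8%) and 19 after LPS (14.1%). The TMM scale gave 2 in KO against WT unstimulated (5.91%). Apart from what the alternatives themselves change, the cause was not tested. The planned edgeR and DESeq2 tests on recovered reads were not run, so how far the calls depend on a count model is not known. Members near the low-count limit could hide differences at this depth.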
